A study of Mus musculus with 6 samples.

Results

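Hedgehog signalling was examined in Merkel cell-enriched and unselected mouse epidermis through 8 genes chosen by name: Shh, Ptch1, Smo, Sufu, Gli1, Gli2, Gli3 and Hhip. All 8 were found among the 54532 genes of the count table. Of these, 7 had counts and passed the count filter that left 13157 genes for testing, and Shh had no count in any library. The data hold 6 Smart-seq2 libraries, a full-length cDNA method for small numbers of cells, made from dissociated dorsal skin epidermis of C57BL/6 mice that were 4 weeks old, of both sexes and with no genetic change or treatment named. The 3 NCAM-enriched libraries come from cells caught on anti-PSA-NCAM beads and then sorted as NCAM-positive and DAPI-negative. The 3 bulk skin libraries come from DAPI-negative cells of the same kind of preparation, not selected for NCAM, and every library was made from 500 sorted events. NCAM, a surface adhesion protein, is also carried by cells other than Merkel cells.

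In the Hedgehog pathway the receptor Ptch1 holds the membrane protein Smo inactive until a secreted ligand such as Shh binds to Ptch1. Active Smo, acting in the primary cilium, frees the Gli transcription factors from their inhibitor Sufu. Gli1, Ptch1 and Hhip are themselves switched on by the pathway, so their transcripts are widely used as its readout. In skin, Shh drives hair follicle growth, and keratinocytes of the touch dome, the epithelium that surrounds Merkel cells, are known for Gli1 expression and for their dependence on Shh from sensory nerves.

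The libraries held 1343190 to 3798136 counts in the NCAM-enriched group and 3333753 to 4481830 in bulk skin, so that 1 count was worth 0.216 to 0.773 CPM (counts brought to 1 scale by dividing by the library size after edgeR's TMM correction). Genes with at least 5 counts numbered 11565 to 14003 and 14417 to 15638. Across genes, Pearson's r of log2 CPM was 0.596 to 0.719 between NCAM-enriched libraries and 0.855 to 0.882 between bulk skin libraries. The list of Merkel cell markers summed to 1723, 1771 and 508.5 CPM in NCAM-enriched libraries 1 to 3 and to 145 to 196 CPM in bulk skin, with 5 of its 12 genes higher by edgeR (Krt20 and Pou4f3 had the smallest p). Suprabasal keratinocyte genes were also higher in the NCAM-enriched group, in 8 of 11 cases. Their sum was larger than that of the Merkel cell markers, with 37320, 14350 and 19350 CPM in NCAM-enriched libraries 1 to 3. In bulk skin it was 1572 to 1760 CPM. The size of a sum depends on which genes are listed, so these sums do not give shares of cells. T and NK cell genes were lower in the NCAM-enriched group in 9 of 10 cases, Langerhans and myeloid genes in 9 of 11 and red blood cell genes in 4 of 4. Fewer cells of a type and less RNA per cell cannot be told apart in such libraries.

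The comparison asked whether transcripts of the pathway differ between NCAM-selected and unselected epidermal cells. None of the 7 tested genes passed the edgeR quasi-likelihood test after Benjamini-Hochberg adjustment, while 1.04% of all tested genes were called higher in the NCAM-enriched libraries and 1.55% lower. At an unadjusted p under 0.05 edgeR marked 1 of the 7, Gli2, beside 18.9% of all tested genes. Gli2 was also the only member called higher by DESeq2, which called 5.02% of tested genes higher and 7.05% lower. It was the only member whose 3 libraries of each group did not overlap, a separation shown by 30.4% of tested genes. The fitted log2 fold change (NCAM-enriched over bulk skin) was above 0 for 5 members and below 0 for 2. Of all tested genes 47.7% were above 0. The member median was 0.788, the value of Hhip, beside -0.07 over all tested genes. These directions rested in part on NCAM-enriched library 2. Without it, Ptch1 (0.162), Gli1 (0.424) and Gli2 (1.92) were above 0. Smo (-0.664), Sufu (-0.178), Gli3 (-0.855) and Hhip (-0.566) were then below 0.

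**Figure D1:**
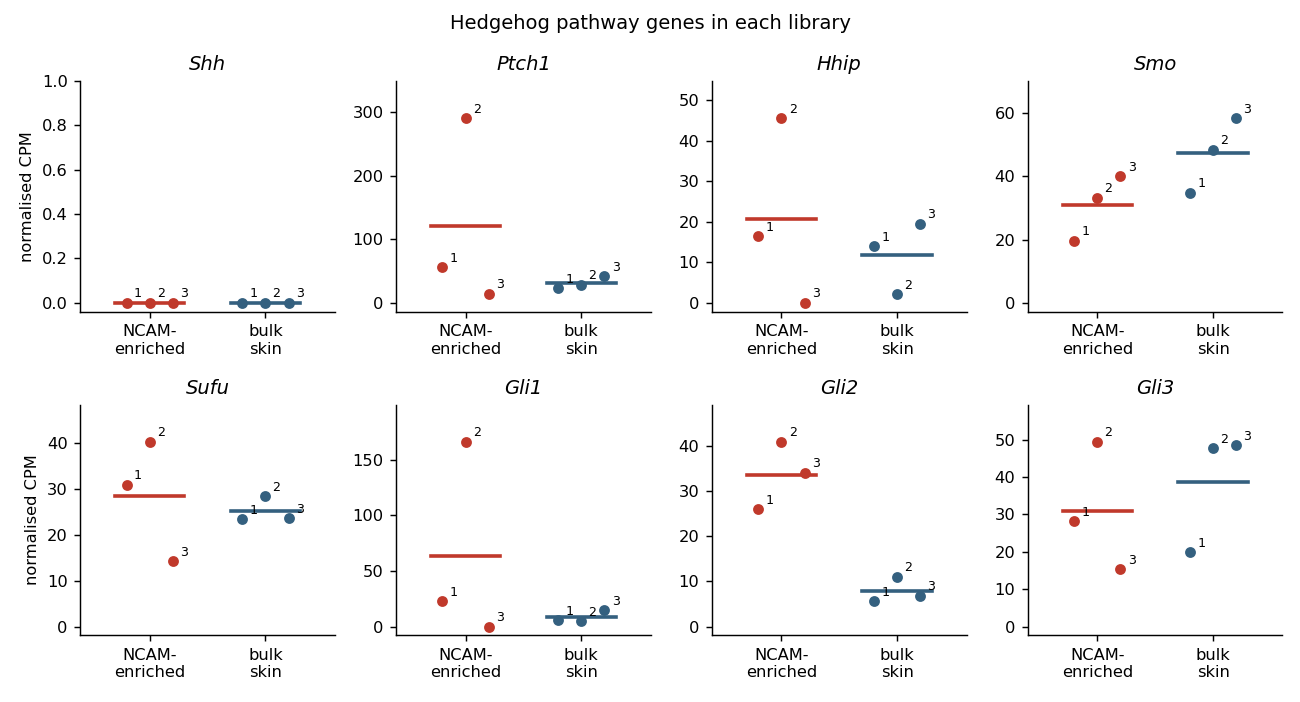
Normalised CPM (vertical axis, a separate scale for each gene) of the 8 Hedgehog pathway genes in the 3 NCAM-enriched and 3 bulk skin libraries. Points are libraries with their replicate number and bars are group means. Gli2 is the only gene whose groups are apart, Shh is at 0 in all 6 libraries, and NCAM-enriched library 2 holds the highest value of Ptch1, Hhip, Sufu, Gli1, Gli2 and Gli3.

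Shh, the secreted ligand (chromosome 5, 28456815 to 28467256, minus strand, GRCm38), had 0 counts in NCAM-enriched libraries 1, 2 and 3 and 0 in bulk skin libraries 1, 2 and 3. A count of 0 allows up to 3 counts over a group, which is 0.448 CPM in the NCAM-enriched group and 0.261 CPM in bulk skin, so that a level below these limits was not detectable at this depth. Per kilobase of exon these limits were 0.157 and 0.0917 CPM per kb. Antisense genes share 28.3% of its exonic bases (9530036O11Rik and Gm26894), and they also had no counts. The other ligands were scarce as well. Ihh, the Indian hedgehog ligand, had 29 counts in NCAM-enriched library 3 and none in the other 5 libraries. Dhh, the desert hedgehog ligand known from Schwann cells, had 5 counts in bulk skin library 2, 2 in library 3 and none elsewhere. Neither ligand passed the count filter.

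Ptch1, the ligand receptor and the inhibitor of Smo (chromosome 13, 63508328 to 63573598, minus strand), had 56.3, 291 and 14.5 CPM in NCAM-enriched libraries 1 to 3 and 23.0, 28.3 and 41.9 CPM in bulk skin libraries 1 to 3. NCAM-enriched libraries 1 and 2 lay above all bulk skin libraries and library 3 lay below them. The means were 121 ± 149 CPM (SD, n = 3) and 31.1 ± 9.78 CPM (SD, n = 3), and the log2 fold change was 1.95 ± 0.926 (SE; 95% interval -0.153 to 4.05; edgeR adjusted p = 0.302, DESeq2 adjusted p = 0.17). The difference rested on NCAM-enriched library 2, since the log2 fold change without it was 0.162 (edgeR adjusted p = 0.921). Leaving out library 3 gave 2.40 (edgeR adjusted p = 0.0602). The highest NCAM-enriched library had 20.1 times the level of the lowest. The coefficient of variation of Ptch1 within that group was 124%. This was above that of 96.3% of 4742 tested genes with a mean CPM over all 6 libraries within a factor of 2. The median of those genes was 51.1%. The mean of Ptch1 used to match them was itself raised by NCAM-enriched library 2.

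Hhip, a membrane protein that binds and sequesters the ligands (chromosome 8, 79965851 to 80058006, minus strand), had 16.5, 45.6 and 0 CPM in NCAM-enriched libraries 1 to 3 and 14.0, 2.16 and 19.5 CPM in bulk skin. Library 2 of the NCAM-enriched group was again the highest and library 3 the lowest, and the groups overlapped. The log2 fold change of 0.788 ± 1.56 (SE; 95% interval -2.75 to 4.32; edgeR adjusted p = 0.848) changed sign to -0.566 without NCAM-enriched library 2 and to -0.997 in limma-voom. Its direction is therefore not settled by these libraries.

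The stretches of DNA before the starts of Ptch1 and Hhip, a pair of target genes with the same order among the NCAM-enriched libraries, are shown because their levels are read as pathway output. They come from RefSeq (GRCm38.p6) and are written 5′ to 3′ on the strand of the gene, with CG dinucleotides in capitals. Windows were found for 6 of the 8 members, and those of Shh and Gli1 were not analysed here. The Ptch1 stretch (chr13:63565736-63565985, minus strand, 250 bases) lies inside the span of the gene, before an internal transcript start. It holds 41 CG dinucleotides at 78.4% G and C. The Hhip stretch (chr8:80058061-80058258, minus strand, 198 bases) lies outside the gene, since bases inside transcripts were left out for Hhip only. It holds 24 CG dinucleotides at 82.3% G and C.
Ptch1: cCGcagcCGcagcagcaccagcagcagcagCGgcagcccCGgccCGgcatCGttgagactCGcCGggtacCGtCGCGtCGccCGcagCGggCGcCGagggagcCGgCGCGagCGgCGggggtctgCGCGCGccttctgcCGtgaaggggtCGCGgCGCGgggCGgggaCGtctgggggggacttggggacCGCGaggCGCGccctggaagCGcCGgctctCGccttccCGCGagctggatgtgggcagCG
Hhip: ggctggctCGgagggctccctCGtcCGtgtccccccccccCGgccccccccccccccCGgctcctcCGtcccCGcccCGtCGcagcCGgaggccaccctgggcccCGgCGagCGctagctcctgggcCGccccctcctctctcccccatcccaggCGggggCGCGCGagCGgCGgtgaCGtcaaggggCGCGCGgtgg
The Gli binding motif GACCACCCA was searched on both strands in windows of 300 bases, from 250 before to 50 after each start. It was in 0 of the 6 member windows and in 83 of 32851 windows of all genes (0.253%). Absence of these letters from a window of this length says nothing of Gli binding at these genes.

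Smo, the transmembrane signal transducer (chromosome 6, 29735503 to 29761365, plus strand), had 19.7, 33.2 and 40.0 CPM in the NCAM-enriched libraries and 34.8, 48.4 and 58.4 CPM in bulk skin. The lowest bulk skin library lay between NCAM-enriched libraries 2 and 3, so the groups overlapped. The means were 31.0 ± 10.4 and 47.2 ± 11.9 CPM (SD, n = 3 each), with a log2 fold change of -0.606 ± 0.559 (SE; edgeR adjusted p = 0.626). The 95% interval of -1.87 to 0.663 includes both a lower and a moderately higher level in the NCAM-enriched libraries. Unlike Ptch1, Smo was not highest in NCAM-enriched library 2.

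Sufu, the cytoplasmic protein that holds the Gli factors (chromosome 19, 46396896 to 46488804, plus strand), had 30.8, 40.2 and 14.2 CPM in the NCAM-enriched libraries and 23.3, 28.3 and 23.6 CPM in bulk skin. The bulk skin libraries all fell inside the NCAM-enriched range. The log2 fold change was 0.174 ± 0.682 (SE; 95% interval -1.37 to 1.72; edgeR adjusted p = 0.927), and it was -0.178 without NCAM-enriched library 2 and -0.236 in limma-voom. Sufu had the lowest coefficient of variation of the members in bulk skin, 11.3%, against 46.4% in the NCAM-enriched group.

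Gli1, an activating Gli factor and itself a target of the pathway (chromosome 10, 127329882 to 127341974, minus strand), had 43, 215 and 0 counts in NCAM-enriched libraries 1 to 3 and 18, 21 and 54 counts in bulk skin. This is 22.8, 166 and 0 CPM against 5.59, 4.54 and 14.8 CPM. NCAM-enriched library 2 carried 87.9% of the CPM summed over its group, and library 3, the most deeply sequenced of the group, had none, a limit of 0.851 CPM for that library. All 3 bulk skin libraries lay above that limit and below NCAM-enriched libraries 1 and 2. The means were 63.0 ± 90.0 and 8.31 ± 5.65 CPM (SD, n = 3 each), with a log2 fold change of 2.91 ± 1.62 (SE; 95% interval -0.761 to 6.58; edgeR adjusted p = 0.384, DESeq2 adjusted p = 0.211). Without NCAM-enriched library 2 the log2 fold change was 0.424 (edgeR adjusted p = 0.912), and limma-voom gave -0.571. Gli1 was called higher when all genes with at least 1 count were fitted (log2 fold change 2.71, edgeR adjusted p = 0.0434), a fit that called 2.76% of genes higher. Of its exonic bases 6.55% are shared with antisense genes, of which Arhgap9 had 11, 0 and 15 counts in the NCAM-enriched libraries and 162 to 337 in bulk skin, so that reads in the shared part cannot be assigned if the counting ignored strand.

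Gli2, the main activator of target genes on ligand binding (chromosome 1, 118834132 to 119053619, minus strand), had 49, 53 and 120 counts in NCAM-enriched libraries 1 to 3 and 18, 51 and 25 counts in bulk skin. This is 26.0, 40.9 and 34.1 CPM against 5.59, 11.0 and 6.85 CPM, and the lowest NCAM-enriched library lay above the highest bulk skin library. The means were 33.7 ± 7.46 and 7.82 ± 2.84 CPM (SD, n = 3 each), a fitted fold of 4.28. The log2 fold change was 2.10 ± 0.761 (SE; 95% interval 0.37 to 3.82), with an unadjusted edgeR p of 0.0227, an adjusted edgeR p of 0.175 and an exact two-sided permutation p of 0.1, the smallest that 3 against 3 can give. DESeq2 called it (log2 fold change 2.11, adjusted p = 0.0168). Over 16 alternative analyses the log2 fold change ran from 1.85 to 2.37. These analyses reuse the same libraries, so this range does not measure precision, and the 95% interval is wider. The adjusted p ran from 0.0168 to 0.465, and DESeq2 was the only 1 of the 16 to call Gli2. In limma-voom the adjusted p was 0.136. Unlike Gli1 and Ptch1, Gli2 varied little among the NCAM-enriched libraries. Its coefficient of variation there was 22.2%, and 4.92% of 4886 genes of similar mean CPM over all 6 libraries had a lower value. These genes were not matched on their level in the NCAM-enriched group, where Gli2 was higher than in bulk skin.

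Gli3, which acts mostly as a repressor when the ligand is absent (chromosome 13, 15463235 to 15730026, plus strand), had 28.2, 49.4 and 15.3 CPM in the NCAM-enriched libraries and 19.9, 47.8 and 48.5 CPM in bulk skin. Both groups spanned nearly the same range. The log2 fold change was -0.331 ± 0.68 (SE; 95% interval -1.87 to 1.21; edgeR adjusted p = 0.854) and it stayed below 0 in all 16 alternatives.

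**Figure D2:**
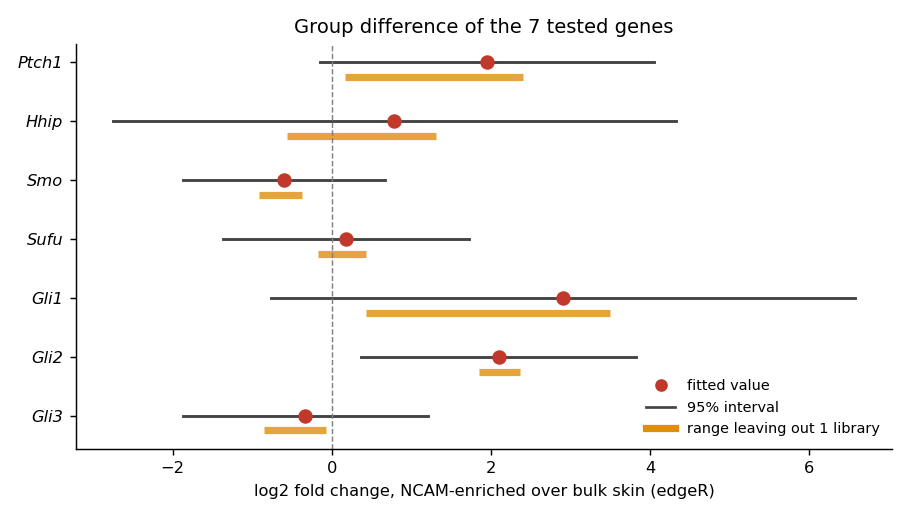
Log2 fold change of NCAM-enriched over bulk skin (horizontal axis, edgeR) for the 7 tested Hedgehog pathway genes. Points are fitted values, thin lines are 95% intervals and thick bars are the range when 1 library is left out. The interval of Gli2 alone stays above 0, and the thick bars of Gli1 and Ptch1 reach down to 0.424 and 0.162.

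The balance of the Gli factors was compared per kilobase of exon, so that gene length did not set it. Gli2 exceeded Gli3 in every NCAM-enriched library, with Gli2 to Gli3 ratios of 1.29, 1.16 and 3.10 (CPM per kb), and was below Gli3 in every bulk skin library, with ratios of 0.393, 0.322 and 0.197. The mean log2 ratio was 0.737 ± 0.78 and -1.78 ± 0.512 (SD, n = 3 each), a difference of 2.51 on the log2 scale (exact two-sided permutation p = 0.1, the smallest possible). Leaving out any single library left a difference of 2.06 to 2.78. The ratio was chosen after the values had been seen. As a share of the 3 Gli factors together, Gli3 took 51.7%, 66.5% and 56.1% in bulk skin and 26.0%, 11.6% and 24.4% in the NCAM-enriched libraries. Gli1 took 40.5%, 74.9% and 0% of the sum in the NCAM-enriched libraries, so the remainder left for Gli2 differed widely there (33.5%, 13.4% and 75.6%).

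**Figure D3:**
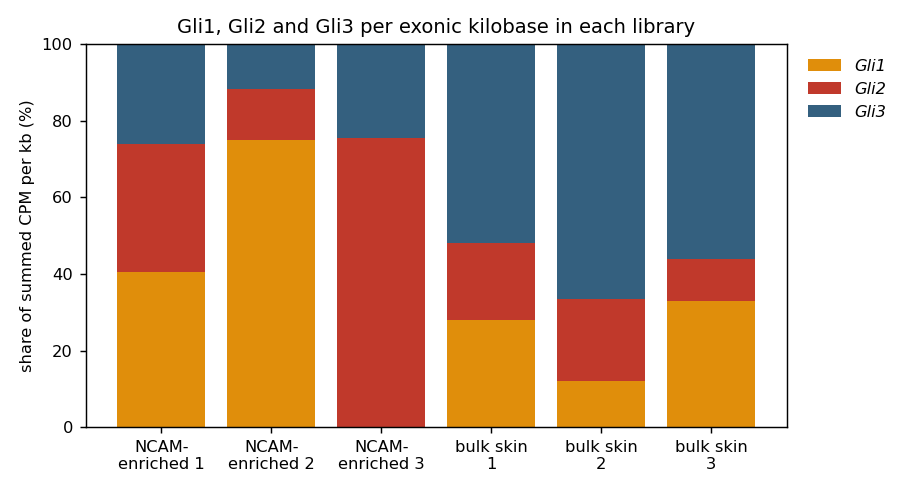
Share of each Gli factor in the summed CPM per exonic kilobase of Gli1, Gli2 and Gli3 (vertical axis, percent) in each of the 6 libraries. Gli3 is the largest part of each bulk skin bar (51.7% to 66.5%), while the NCAM-enriched bars differ in Gli1 from 0% to 74.9%.

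Per kilobase of exon the members stood in different orders in the 2 groups. In bulk skin the order was Smo (8.40 ± 2.11 CPM per kb, SD, n = 3), Gli3 (4.04), Sufu (3.26), Ptch1 (2.19), Gli1 (1.66), Hhip (1.31), Gli2 (1.14) and Shh (0). Only the neighbours Smo and Gli3, Sufu and Ptch1, and Gli2 and Shh did not overlap between libraries. In the NCAM-enriched group the order of means was Gli1 (12.6 ± 18.0 CPM per kb, SD, n = 3), Ptch1 (8.51), Smo (5.51), Gli2 (4.90), Sufu (3.69), Gli3 (3.23), Hhip (2.28) and Shh (0), and every pair of neighbours overlapped. The leading place of Gli1 rested on library 2, where it had 33.3 CPM per kb. The ratio of Ptch1 to Smo (CPM per kb), receptor target to signal transducer, was 1.14, 3.47 and 0.143 in the NCAM-enriched libraries and 0.232 to 0.285 in bulk skin (difference of mean log2 ratios 1.68, exact two-sided permutation p = 0.4).

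Among the NCAM-enriched libraries, several members shared an order. Ptch1, Gli1, Hhip, Sufu and Gli3, 5 of the 7 tested members, were highest in library 2, intermediate in library 1 and lowest in library 3, as were 16.9% of all tested genes. Of the 20 other tested response genes, 5 (25%) had this order. The order of 3 libraries was noticed after values had been seen and is a description of these libraries.

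Markers of dermal papilla and fibroblasts, cells known for strong Gli1 and Ptch1 expression, had a sum in that order. The summed level of their 14 genes was 1027, 41400 and 180.8 CPM in NCAM-enriched libraries 1 to 3 and 12120 to 22340 CPM in bulk skin, and 0 of the 13 tested genes were called. Of these, 1 had an unadjusted edgeR p under 0.05, Lum. Lum, a matrix proteoglycan gene, was at 0 in NCAM-enriched libraries 1 and 3, and Corin, a dermal papilla gene, was at 0 in all 3. Col1a1, the main fibrillar collagen gene, had 121, 11900 and 11.1 CPM in these libraries and 2600 to 5910 CPM in bulk skin (named after its values were seen). Together Col1a1, Col1a2, Col3a1 and Sparc, genes of the collagen matrix, made up 76.7%, 96.6% and 68.6% of the sum in NCAM-enriched libraries 1 to 3. Gene by gene, 8 of the 14 markers were in the order of library 2, 1 and 3, and 9 were highest in library 2. The 4 genes highest in library 1 were Rspo3 (28.2, 0 and 5.68 CPM in libraries 1 to 3), Alx4 (10.6, 0.773 and 0 CPM), Sox18 (6.91, 0 and 0 CPM) and Vcan (36.1, 33.2 and 0.568 CPM). In bulk skin, where the summed level was 12120 to 22340 CPM, Gli1 was at 4.54 to 14.8 CPM, and in NCAM-enriched library 1, where it was 1027 CPM, Gli1 was at 22.8 CPM. Gli2 was at 34.1 CPM in NCAM-enriched library 3, where the sum was 180.8 CPM, and at 5.59 to 11.0 CPM in bulk skin. The part of such cells in the levels of Gli1, Gli2, Ptch1 and Hhip was not tested. Genes of basal keratinocytes summed to 5993, 7044 and 21760 CPM in NCAM-enriched libraries 1 to 3 and to 9525 to 10800 CPM in bulk skin. Those of the isthmus and touch dome (Gli1 left out) summed to 11990, 6111 and 28630 CPM, against 2023 to 2610 CPM in bulk skin. Both sums were highest in library 3. There the basal sum was led by Krt5 (9000 CPM) and Krt14 (7950 CPM). Of the basal genes, Trp63, Itga6 and Dst were highest in library 2 (451, 362 and 1220 CPM, against 302, 299 and 1020 CPM in library 3). Lama3 was highest in library 1 (78.1 CPM), and the other basal genes were highest in library 3. Krt17 and Krt79, of which Krt79 is also on the sebaceous list, made up 98.6%, 96.1% and 98.1% of the isthmus and touch dome sum in NCAM-enriched libraries 1 to 3. Over the 6 genes of that list the median log2 fold change was -0.146 with 4 below 0, Krt17 was called higher and Lgr6, a stem cell receptor gene, lower (33.9 and 203 CPM, edgeR adjusted p = 0.0195), and Plet1 had 49.0 and 153 CPM (edgeR adjusted p = 0.326). The part of these cells in the level of any member was not tested either.

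**Figure D4:**
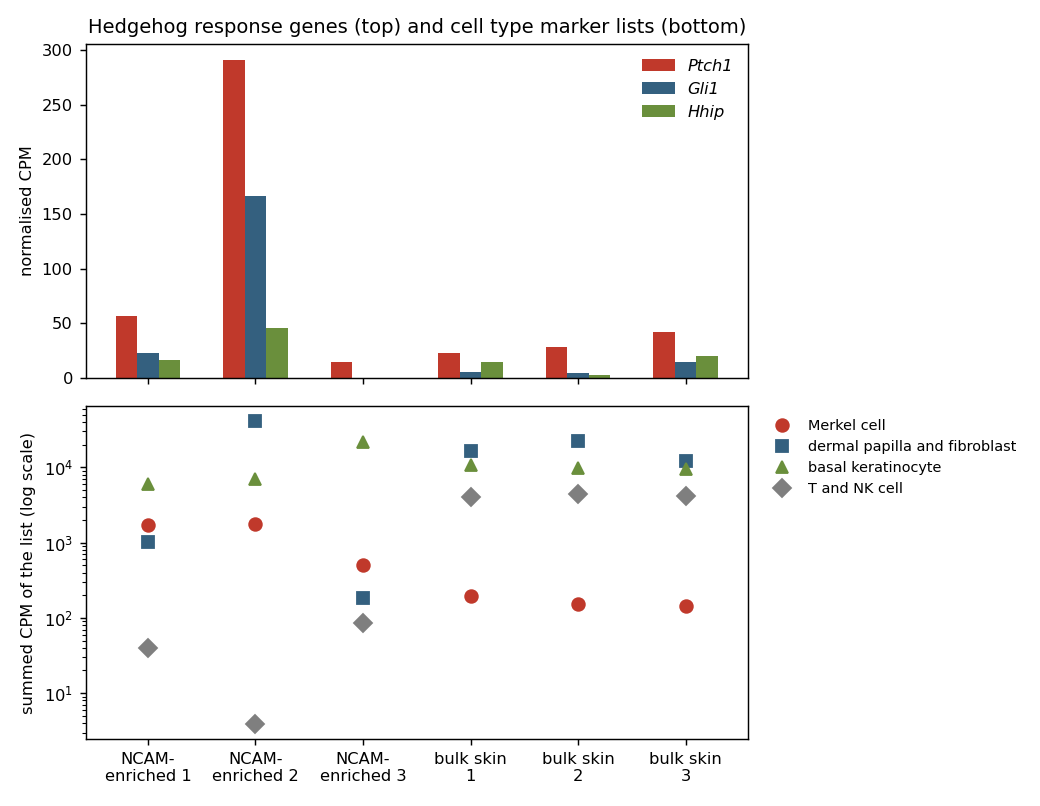
Normalised CPM of the response genes Ptch1, Gli1 and Hhip (top, linear axis from 0) and summed CPM of 4 marker lists (bottom, log axis) in the 6 libraries. NCAM-enriched library 2 has the highest bars and also the highest dermal papilla and fibroblast sum (41400 CPM). The bulk skin libraries have sums of 12120 to 22340 CPM. Their bars are at 23.0 to 41.9 CPM for Ptch1, 4.54 to 14.8 CPM for Gli1 and 2.16 to 19.5 CPM for Hhip. The part of such cells in these levels was not tested.

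Outside the 8 members, 84 genes of the pathway were listed in 5 roles. Of these, 72 were tested, 0 were called higher and 1 was called lower by edgeR, where 1.04% and 1.55% of all tested genes were. Of the 72, 11.1% had an unadjusted p under 0.05, beside 18.9% of all tested genes, and their median log2 fold change was -0.11. Among ligand and ligand-release genes 0 of 5 tested were called (median log2 fold change 0.273). Scube2, a secreted protein that helps release the lipid-bearing ligand, had 73.8 and 63.5 CPM as means of the NCAM-enriched and bulk skin groups, and Disp1, the transporter that exports the ligand, had 10.4 and 20.7 CPM. Disp2, a relative of Disp1, had 2, 60 and 2 counts in NCAM-enriched libraries 1 to 3 and none in bulk skin, which is at least 36.6-fold higher when bulk skin is set to a floor of 3 counts for the whole group, or at least 2.83-fold higher once library 2 is left out.

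Among receptors and co-receptors 0 of 4 tested were called (median log2 fold change 0.279), and Lrp2 had no count. Gas1, a co-receptor that promotes ligand binding, had 374 and 188 CPM in the NCAM-enriched and bulk skin groups (log2 fold change 0.987, edgeR adjusted p = 0.411). Its highest library was NCAM-enriched library 2 with 704 CPM. Boc, another co-receptor, had 43.4 and 91.4 CPM (log2 fold change -1.06, edgeR adjusted p = 0.545).

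Among transducers and Gli regulators 0 of 21 tested were called by edgeR (median log2 fold change 0.27). The most abundant were Csnk1a1 (685 and 422 CPM, edgeR adjusted p = 0.336) and Gsk3b (296 and 208 CPM), kinases that mark Gli proteins for processing. Prkacb, a catalytic subunit of protein kinase A, the kinase that primes this step, had 45.2, 85.8 and 20.1 CPM in the NCAM-enriched libraries and 188 to 293 CPM in bulk skin. Its groups did not overlap and its log2 fold change was -2.21 ± 0.545 (SE; edgeR adjusted p = 0.0675). DESeq2 (adjusted p = 0.00626) and limma-voom (adjusted p = 0.00969) called it lower. The other listed genes of this kinase were not called by edgeR. Prkaca, also a catalytic subunit, had 62.4 and 67.1 CPM (log2 fold change -0.1, edgeR adjusted p = 0.951). Prkar1a had 178 and 265 CPM (log2 fold change -0.576, edgeR adjusted p = 0.385). DESeq2 also called Spop, an adaptor for degradation of Gli2 and Gli3, higher (log2 fold change 1.21, adjusted p = 0.0428). It was the only 1 of the 16 alternatives to call Spop, and the edgeR adjusted p was 0.117. Prkacb, Prkaca, Prkar1a and Spop were named after their values had been seen. Of 23 tested genes of the primary cilium, the organelle in which Smo acts, 0 were called by edgeR (median log2 fold change -0.311). Dync2h1, the motor of return transport in the cilium, had 69.9 and 28.9 CPM (edgeR adjusted p = 0.304), and Arl13b, a small GTPase of the ciliary membrane, had 62.9 and 46.0 CPM.

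Among 20 tested response genes other than the members, edgeR called 0 higher and 1 lower (median log2 fold change -0.252). This was Sfrp2, a secreted modulator of Wnt signalling also known from dermal fibroblasts, with 0 counts in each NCAM-enriched library and 252, 1094 and 331 counts in bulk skin (edgeR adjusted p = 0.00939). Set to the same floor, the NCAM-enriched group was at least 326-fold lower. This bound was 154-fold when NCAM-enriched library 3 was dropped and 190-fold when bulk skin library 2 was dropped. The call was lost without bulk skin library 1, 2 or 3, with an adjusted p from 1.78e-20 to 0.0784 over the 16 alternatives, and 16.1% of the exonic bases are shared with the antisense gene Gm26771. Unlike the sum of the fibroblast markers, Sfrp2 was at 0 in NCAM-enriched library 2. The most abundant response genes that were not called were Ccnd2, a cyclin gene (563 and 1040 CPM), and Sox9, a hair follicle transcription factor gene (325 and 238 CPM).

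**Figure D5:**
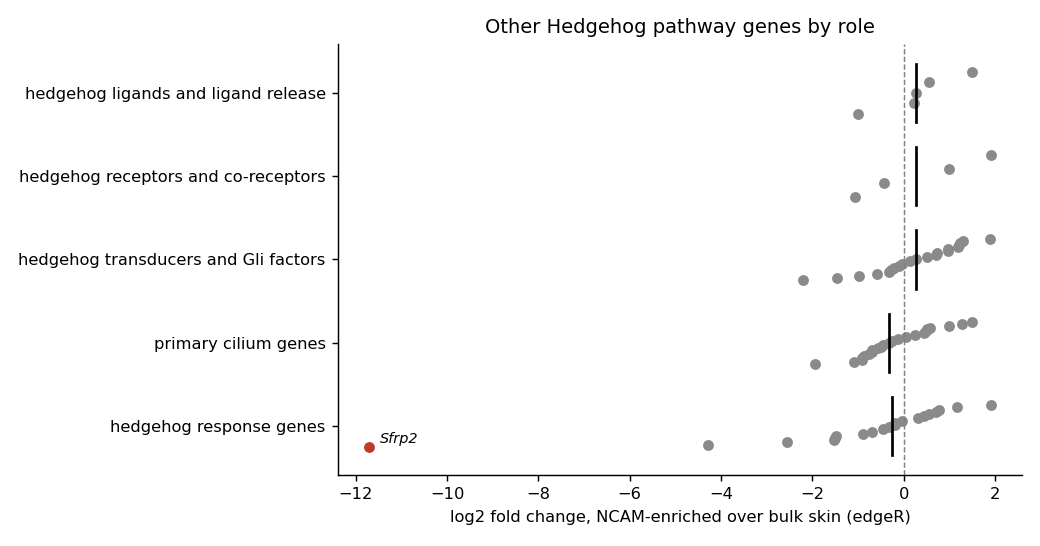
Log2 fold change of NCAM-enriched over bulk skin (horizontal axis, edgeR) for the tested genes of 5 Hedgehog pathway roles, with the 8 members left out. Each point is a gene, the vertical bars are medians and the coloured point is the only called gene, Sfrp2, whose fitted value depends on the prior count because all NCAM-enriched libraries are at 0.

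Genes whose log2 CPM followed each member most closely across the 6 libraries were listed as a description, over points that share libraries and depth. For Gli2 they were H1fx (r = 0.997), Acbd3 (0.996) and Atp9a (0.995), a linker histone, a Golgi protein and a membrane flippase. Atp9a, for example, had 248, 370 and 284 CPM in the NCAM-enriched libraries and 54.3 to 98.6 CPM in bulk skin. For Gli1 they were Nat14, B3galt2 (r = 0.993 each) and Col4a5 (0.992), a basement membrane collagen gene with 47.8, 66.4 and 20.1 CPM against 31.7 to 42.8 CPM. For Ptch1 they were Hnrnpk (r = 0.995), Cacna1a and Nsd3 (0.993 each). For Smo, Sufu, Gli3 and Hhip the leading genes were Zfp711 (r = 0.992), Tubb4a (0.992), Nmt2 (0.994) and Ranbp9 (0.993). None of these leading genes was itself a member of the pathway lists, which outside the members held 72 of the 13157 tested genes. With so small a share, such genes would rarely be among so few leading genes, so their absence says nothing of the pathway. The r values are the largest picked from many genes over 6 libraries, so their size alone does not show a link to a member.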

How the data were processed

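Smart-seq2 counts of 3 NCAM-enriched and 3 bulk skin libraries were used, with groups taken from the labels. The authors deposited raw read counts for each gene, without normalization: per their methods, adapters were clipped, abundant sequences removed, reads aligned to GRCm38 with STAR and counted with featureCounts. Annotation release and strand setting: not given in the sources used here, and Smart-seq2 does not mark strand. Positions and exonic lengths came from GENCODE M21, which held 54495 of the 54532 gene IDs.

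Counts were filtered (filterByExpr by group), TMM-scaled and tested with edgeR 4.0.16 (quasi-likelihood, non-robust, R 4.3.3) over 13157 genes, and genes were called up to an adjusted p of 0.05. Biological variation was 0.744 (common coefficient). SE was derived from the test as the size of the log2 fold change over the square root of F. Log2 CPM used a prior count of 2. Alternatives were DESeq2 1.42.0, limma-voom (limma 3.58.1), other scalings and filters, robust dispersion, thinning to the smallest library, a replicate block and leaving out each library. For the Gli2 to Gli3 ratio, leaving out libraries was added after seeing the data. Single values were compared with exact two-sided permutation tests.

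The members and gene lists were chosen with earlier results of these data known. The genes named were the members, the called and the 2 most abundant other genes of each of 5 pathway lists, up to 2 genes of a marker list, and the 3 genes closest to each member by Pearson's r. Named outside this rule after values were seen were Ihh, Dhh, Disp2, Lrp2, Prkacb, Prkaca, Prkar1a, Spop, Col1a1, Col1a2, Col3a1, Sparc, Corin, Rspo3, Alx4, Sox18, Vcan, Krt79, Plet1, Krt5, Krt14, Trp63, Dst and genes sharing exonic bases. The values of 1 listed gene are not reported here. Of 14 marker lists, those not described above were hair follicle (1 of 11 tested higher, 2 lower), hair matrix, Schwann, melanocyte and sebaceous (0 called of 5, 6, 2 and 6) and muscle (1 of 1 higher). The paper states that both kinds of cell were sorted in triplicates, and no source used here ties the replicates to separate animals. The p-values therefore measure the spread between these libraries, which may be technical. Floors (3 counts) cover counting error only, since reads are PCR copies without molecular identifiers. Replicate numbers are shared by the groups, and whether they pair the libraries is not stated in the sources used here. Deviations from group means correlated at 0.0226, 0.00025 and -0.00436 between libraries of the same number. Such correlations cannot show whether these libraries share an animal or a sort.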

Additional observations from a re-analysis of the deposited data

How the results depend on the processing

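The fitted direction of Ptch1, Smo, Gli2 and Gli3 held in all 16 alternatives. Reversed were Sufu (-0.236 in limma-voom, -0.178 without NCAM-enriched library 2), Gli1 (-0.571 in limma-voom) and Hhip (-0.997 and -0.566 in the same fits as Sufu), and the cause was not tested. DESeq2 called 1 member (Gli2, log2 fold change 2.11) and the fit of all genes with at least 1 count called 1 (Gli1, 2.71). Over all genes edgeR called 137 higher and 204 lower, DESeq2 661 and 928, limma-voom 351 and 849, the fit of all genes with at least 1 count 769 and 741, and fits without 1 library 0 to 1099 higher and 13 to 733 lower. In the fits that called 0 higher (without bulk skin library 1 or 2), 2115 and 2237 genes had an unadjusted edgeR p under 0.05. For the other pathway genes, DESeq2 called 1 transducer higher and 1 lower, 1 cilium gene higher, and 1 response gene higher and 2 lower. Limma-voom called 1 transducer and 2 response genes lower, and the fit of all genes with at least 1 count called 1 ligand-release gene higher and 1 transducer lower. Without 1 library, 0 to 1 transducers were higher, 0 to 1 lower, and 0 to 2 response genes lower. Over all genes the median log2 fold change was -0.07, and it shifted to -0.37 in limma-voom, -0.36 with the replicate block, -0.17 with upper-quartile factors and 0.083 in the fit of genes with at least 1 count. Without 1 library, Sufu ran from -0.178 to 0.43 and Hhip from -0.566 to 1.31.

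The replicate numbers share no stated origin. With the replicate block edgeR called 50 genes higher and 92 lower and no member, and Ptch1 had a log2 fold change of 1.11. Depth limits Shh, and the zeros of Gli1 and Hhip in NCAM-enriched library 3, to the level of 3 counts.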
